A study of Mus musculus with 19 samples.

Results

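The genes described here encode the Hedgehog ligand Sonic hedgehog, the proteins that receive it at the cell surface and the transcription factors that answer it, in RGCs sorted from the embryonic mouse retina. The 9 genes Shh, Boc, Cdon, Gas1, Ptch1, Smo, Gli1, Gli2 and Gli3 were picked by symbol, each through its Ensembl identifier, out of 47069 genes listed in the count tables. All of them had enough reads to be among the 15941 genes tested. The study asked how RGCs whose axons stay on their own side of the brain (iRGCs) differ in gene expression from RGCs whose axons cross the midline (cRGCs). RNA-seq was made from 3 iRGC and 3 cRGC libraries of green fluorescent cells sorted from retinas of E16.5 embryos.

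All animals are described as C57/DBA F1 embryos, males and females pooled, and the labels give their genotype as WT, although both populations carry a Cre driver and a reporter. The paper names C57/DBA F1 hybrids for its electroporation embryos, while the sequenced embryos came from Cre driver lines crossed with the reporter line. The reporter is Sun1-GFP, a nuclear envelope protein fused to GFP, which is made once Cre has removed a stop cassette and stays on in the descendants of such cells. For iRGCs, Cre was driven by the serotonin transporter gene Slc6a4 (Sert), which RGCs of the ventrotemporal retina use for a period of development. For cRGCs, Cre was placed in the locus of Pou4f2 (Brn3b), a transcription factor of most RGCs, and the ventrotemporal region was cut away, so that the cRGC group is set by dissection as well as by the driver. How many embryos entered each library, and whether the libraries came from separate litters, is not given in the sources used here. The p-values therefore measure the spread between these libraries, which may be technical in part, and the population cannot be told apart from any step in which both kinds of retina were handled separately.

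Sonic hedgehog is a secreted lipid-modified protein that binds Patched, the receptor encoded by Ptch1, with the help of the coreceptors Boc, Cdon and Gas1. Unbound Patched holds the membrane protein Smoothened (Smo) inactive. Once it is released, Smoothened acts at the primary cilium to shift Gli2 and Gli3 from repressors towards activators of transcription. Gli1, an activator, and Ptch1 are themselves targets of the pathway. In the retina, RGCs make the ligand and neighbouring progenitors respond to it, and at the optic chiasm Boc is known as a receptor through which ipsilateral axons are repelled by Sonic hedgehog.

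The libraries held 28193178 to 33638083 reads assigned to genes. Levels are given as CPM, counts scaled to the library size after TMM normalization in edgeR, and 3 counts in a library correspond to 0.0927 to 0.115 CPM. Counts vary by sampling as well as between libraries, and the smallest count of any of the 9 genes was that of Boc in cRGC replicate 1, 69 reads. Log2 fold changes set iRGCs over cRGCs and are printed with their SE, and a gene was called at an adjusted p-value under 0.1.

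Before the Hedgehog genes, the libraries were compared with their labels. Slc6a4, whose driver marks the iRGCs, stood at 2.06, 33.4 and 116 CPM in iRGC replicates 1, 2 and 3 and at 48.1, 35.4 and 30.5 CPM in cRGC replicates 1, 2 and 3. iRGC replicate 1 was thus below every cRGC library, and the gene was not called (log2 fold change 0.41, SE 0.929, adjusted p = 0.768 by edgeR with Benjamini-Hochberg adjustment). Zic2, the transcription factor that specifies iRGCs, was higher in all 3 iRGC libraries (1.34, SE 0.128, adjusted p = 2.09e-04 by edgeR with Benjamini-Hochberg adjustment). Ephb1, a guidance receptor of iRGC axons, overlapped between the populations and was not called.

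Markers of RGCs in general were present in both populations but lower in iRGCs. Of the 14 RGC markers, 13 were lower and 1, Thy1, was not called, with a median log2 fold change of -1.95. The list's level, a geometric mean over the CPM of its genes after adding 0.5, was 96.0, 124 and 192 CPM in iRGC replicates 1, 2 and 3 and 556, 502 and 460 CPM in the cRGC libraries. Summed over the list, its genes reached 2397, 3351 and 5138 CPM in iRGCs and 13507, 12246 and 14768 CPM in cRGCs, and Nefm, Stmn2 or Gap43, which encode a neurofilament, a tubulin-binding protein and a growth cone protein, had the highest CPM, depending on the library. Isl1, an RGC transcription factor, stood at 137 to 178 CPM in iRGCs and 533 to 708 CPM in cRGCs.

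Markers of retinal progenitors went the other way. Of 12, 11 were higher in iRGCs and 1, Vim, was not called, with a median of 2.44. The list's level was 294, 285 and 238 CPM in the iRGC libraries and 36.2, 77.7 and 56.4 CPM in the cRGC libraries, and its summed level was 4781, 4730 and 3909 CPM against 736, 1291 and 1195 CPM, with Fgf15 at the highest CPM of the list in every iRGC library and Vim in every cRGC library. All 12 markers of cycling cells and all 8 of neurogenic precursors were also higher in iRGCs, at list levels of 186 to 214 against 24.8 to 55.1 CPM and of 134 to 168 against 30.2 to 50.5 CPM. In cRGCs, replicate 2 had the highest level of all 3 of these lists and replicate 1 the lowest. In bulk samples, fewer cells of a type and less RNA per cell cannot be told apart. The paper also states that iRGCs are born later, so that at E16.5 they are on average younger than cRGCs. The part of this age difference in these lists and in the Hedgehog genes was not tested.

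Several lists of other cell types peaked in iRGC replicate 2. Since 0.5 is added to each gene's CPM, a list without reads stands at 0.5 CPM, as the erythroid list did in cRGC replicate 1. The low list levels given here lie near this floor. The endothelial list stood at 10.9, 44.0 and 2.00 CPM in the iRGC libraries and at 1.08 to 1.35 CPM in cRGCs. Its most abundant gene, Kdr, which retinal progenitors also express, did not peak in iRGC replicate 2 (366, 320 and 418 CPM). Neither did Cldn5 (26.0, 25.2 and 11.8 CPM). The endothelial cadherin Cdh5 did, at 15.2, 81.3 and 0.158 CPM, and stood at 0 in every cRGC library. All 6 endothelial genes tested were called higher in iRGCs, but Pecam1 and Esam overlapped between the populations. In iRGC replicate 3 they stood at 0.284 and 0.0631 CPM, against up to 0.725 and 1.35 CPM in cRGCs. The ciliary margin list (3.88, 26.3 and 2.75 CPM in iRGCs, 0.972 to 1.20 CPM in cRGCs) and the mural cell list (2.03, 7.57 and 2.42 CPM against 0.669 to 0.867 CPM) also peaked in iRGC replicate 2, with 3 of 4 and 3 of 5 tested genes higher. The fibroblast list was low (1.06, 2.22 and 1.01 CPM in iRGCs, 0.823 to 1.02 CPM in cRGCs), with Lum at 0 in every library. Of its 3 tested genes 1 was higher in iRGCs, the collagen gene Col1a2, at 9.62, 16.4 and 3.78 CPM in iRGCs and 0.846 to 3.13 CPM in cRGCs. Among the other lists, all 4 tested markers of photoreceptor precursors, 4 of 5 of amacrine cells, all 4 of erythroid cells, 4 of 7 of microglia, 1 of 3 of horizontal cells and 5 of 8 genes that answer tissue dissociation were higher in iRGCs. The erythroid list (1.56, 7.47 and 2.12 CPM in iRGCs, at most 1.06 CPM in cRGCs) and the dissociation list (33.3, 59.9 and 41.1 CPM against 18.7 to 21.5 CPM) again peaked in iRGC replicate 2, whereas the microglia list was even over the iRGC libraries (2.19, 2.68 and 2.32 CPM against 0.614 to 0.980 CPM). None of the 5 tested markers of pigment epithelium, 2 of astrocytes and optic stalk or 2 of lens was called. Over all tested genes, 23.3% were called higher in iRGCs and 23.1% lower. The 1 of 3 horizontal cell and fibroblast markers called higher is little above such a share. iRGC replicate 1 stood apart in its low Slc6a4 and iRGC replicate 2 in several of these lists. Values are therefore also given with both libraries left out, a choice made after the data were seen. That leaves 1 iRGC library, so they are given as values without a test.

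**Figure D1:**
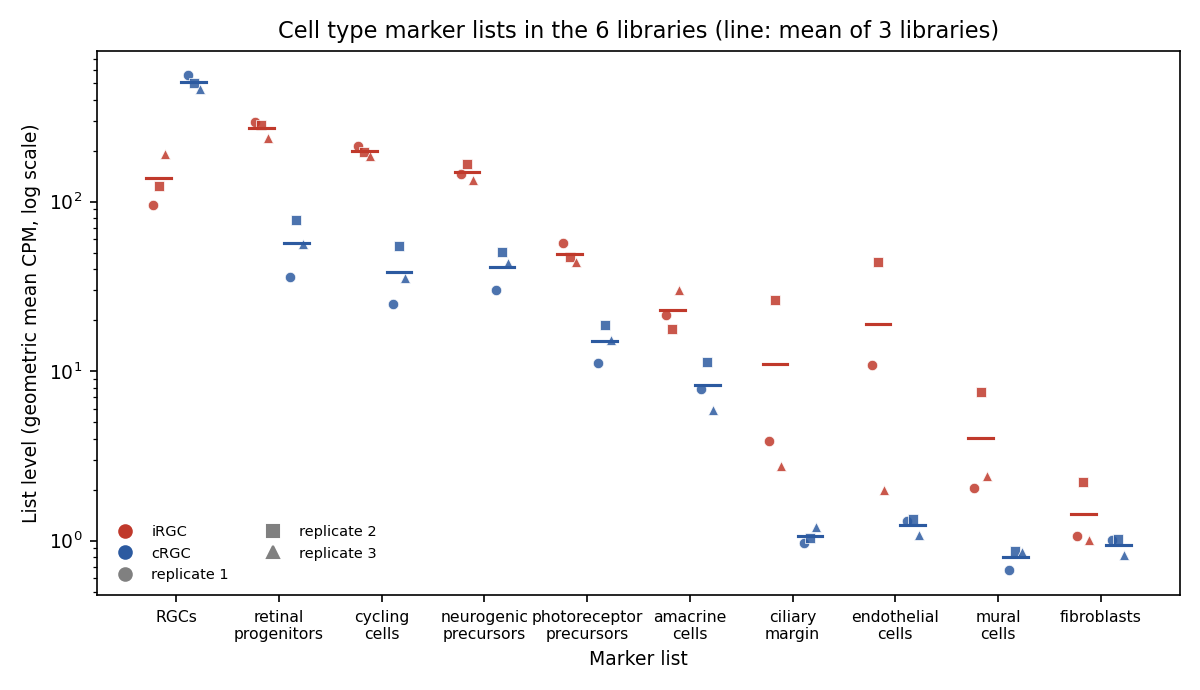
Level of 10 marker lists in each library, as the geometric mean CPM of the list's genes on a log axis, with a symbol per library, red for iRGCs and blue for cRGCs, and a line at the mean of 3 libraries. RGC markers were lower and progenitor, cycling and neurogenic markers higher in every iRGC library than in any cRGC library, and the endothelial, mural and ciliary margin lists peaked in iRGC replicate 2.

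Against this background, 8 of the 9 Hedgehog genes were higher in iRGCs and 1, Shh, was lower. The populations differed widely in general: 7395 of the 15941 tested genes were called, 46.4%, with 23.3% higher and 23.1% lower in iRGCs. The median log2 fold change was 2.22 over the 9 genes and -0.0031 over all tested genes. For each of the 9 genes the iRGC and cRGC libraries did not overlap, which held for 55.3% of all tested genes, and an exact permutation test over the 6 libraries gave p = 0.1 for each (two-sided), the smallest value that 3 against 3 can give. All 9 kept their direction and remained called under the 15 alternative analyses that kept at least 2 libraries per population, leaving out each library in turn among them.

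**Figure D2:**
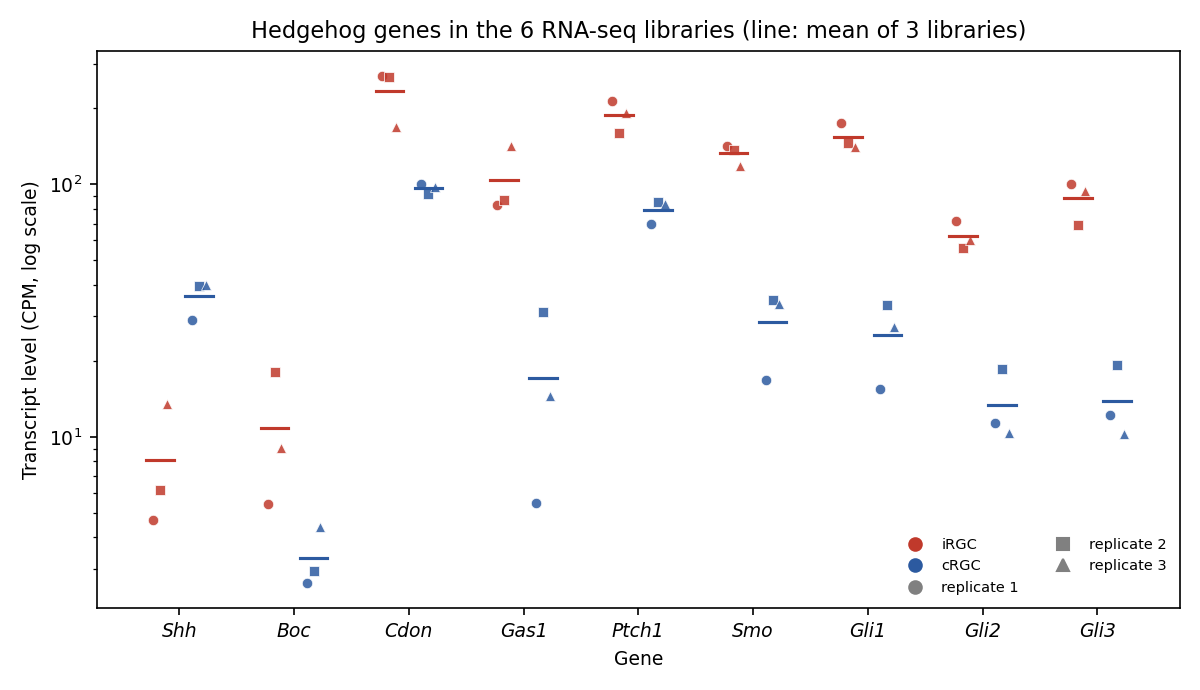
Transcript level of the 9 genes in CPM on a log axis, with a symbol per library, red for iRGCs and blue for cRGCs, and a line at the mean of 3 libraries. Shh was the one gene with every iRGC library below every cRGC library, and for the other 8 genes every iRGC library was above every cRGC library.

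The ligand was the gene that went down in iRGCs. Shh (ENSMUSG00000002633, chr5:28456815-28467256 on the minus strand of GRCm38), which RGCs secrete towards progenitors and along the optic nerve, stood at 4.70, 6.18 and 13.5 CPM in iRGC replicates 1, 2 and 3 and at 29.0, 39.7 and 39.9 CPM in cRGC replicates 1, 2 and 3. These levels rest on 146, 200 and 428 reads in iRGCs and 754, 1149 and 1235 reads in cRGCs. The mean was 4.45-fold higher in cRGCs (36.2 ± 6.22 against 8.12 ± 4.71 CPM, SD, n = 3 libraries each). The log2 fold change of -2.15 (SE 0.373) had an adjusted p of 0.00190 by edgeR with Benjamini-Hochberg adjustment.

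iRGC replicate 3, the library with the most Shh of its population, was also the iRGC library with the most RGC marker RNA and the most Slc6a4. Without it the log2 fold change was -2.74, and with iRGC replicates 1 and 2 left out it was -1.41, so that the size but not the direction of the difference depended on which iRGC libraries were used. Of the exonic bases of Shh, 28.3% overlap the antisense genes 9530036O11Rik and Gm26894, and whether reads were counted by strand is not given in the sources used here. Both antisense genes had few reads. The gene 9530036O11Rik had 0, 2 and 10 in iRGCs and 45, 17 and 39 in cRGCs and was not called. Gm26894 had 0, 7 and 13 against 62, 27 and 60 and, like Shh, was called lower in iRGCs (-3.04, SE 1.28, adjusted p = 0.0915 by edgeR with Benjamini-Hochberg adjustment).

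All 3 coreceptors, which bind Sonic hedgehog together with Patched, were higher in iRGCs. Boc (ENSMUSG00000022687, chr16:44485049-44558897, minus strand) had the fewest reads in cRGCs of the 9 genes and stood at 5.40, 18.1 and 9.05 CPM in iRGCs and 2.65, 2.93 and 4.39 CPM in cRGCs. The gap between the lowest iRGC and the highest cRGC library was small beside the spread within iRGCs, where replicate 2 had 3.34 times the level of replicate 1. Its log2 fold change of 1.70 (SE 0.469) passed the threshold (adjusted p = 0.0184 by edgeR with Benjamini-Hochberg adjustment). Without iRGC replicate 2 it was 1.12 with an adjusted p of 0.0962 by edgeR, the highest of any of the 9 genes under any alternative. That library also had the highest levels of the endothelial, mural, ciliary margin, erythroid, neurogenic precursor and dissociation lists, whose part in the Boc difference was not tested. With iRGC replicates 1 and 2 left out, Boc was at 1.45.

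Cdon (ENSMUSG00000038119, chr9:35421128-35507652, plus strand), the coreceptor most like Boc in structure, was higher in iRGCs as well. It stood at 268, 266 and 169 CPM in iRGC replicates 1, 2 and 3 and at 100, 91.6 and 97.5 CPM in the cRGC libraries. The cRGC libraries lay close together, whereas iRGC replicate 3 was well below the other iRGC libraries, the reverse of its place for Shh. The difference of 1.28 on the log2 scale (SE 0.175, adjusted p = 6.08e-04 by edgeR with Benjamini-Hochberg adjustment) shrank to 0.82 with iRGC replicates 1 and 2 left out.

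Gas1 (ENSMUSG00000052957, chr13:60174405-60177365, minus strand) encodes a coreceptor held to the membrane by a lipid anchor. Its levels were 83.2, 86.8 and 142 CPM in iRGCs and 5.46, 31.2 and 14.5 CPM in cRGCs. The cRGC libraries differed 5.72-fold among themselves, the widest spread of any of the 9 genes in that population, with replicate 2 the highest. Gas1 differed by 2.61 on the log2 scale (SE 0.525, adjusted p = 0.00407 by edgeR with Benjamini-Hochberg adjustment) and by 3.38 without cRGC replicate 2. Of the exonic bases of Gas1, 19.9% overlap the gene Gm48488.

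The receptor and the transducer were both higher in iRGCs. Ptch1 (ENSMUSG00000021466, chr13:63508328-63573598, minus strand) had 213, 159 and 192 CPM in iRGCs and 69.4, 85.1 and 83.8 CPM in cRGCs. Its log2 fold change of 1.24 (SE 0.140) was the smallest of the 8 genes that were higher and had the smallest SE of the 9, staying between 1.14 and 1.35 when any library was left out (adjusted p = 2.88e-04 by edgeR with Benjamini-Hochberg adjustment). Smo (ENSMUSG00000001761, chr6:29735503-29761365, plus strand) had 142, 137 and 119 CPM in iRGCs and 16.8, 34.7 and 33.8 CPM in cRGCs. Its iRGC libraries were close together and its cRGC replicate 1 was the lowest library. On the log2 scale Smo was higher by 2.22 (SE 0.255, adjusted p = 3.04e-04 by edgeR with Benjamini-Hochberg adjustment).

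The 3 Gli genes were higher in iRGCs by similar amounts. Gli1 (ENSMUSG00000025407, chr10:127329882-127341974, minus strand), an activator whose transcription is commonly used as a readout of the pathway, had 175, 146 and 140 CPM in iRGCs and 15.5, 33.4 and 27.1 CPM in cRGCs. Gli2 (ENSMUSG00000048402, chr1:118834132-119053619, minus strand), the main primary activator, had 71.3, 56.2 and 60.2 CPM against 11.4, 18.5 and 10.3 CPM. Gli3 (ENSMUSG00000021318, chr13:15463235-15730026, plus strand), the main repressor in the absence of ligand, had 101, 69.2 and 94.6 CPM against 12.3, 19.2 and 10.3 CPM. iRGC replicate 1 was the highest library for all 3 genes, and cRGC replicate 2 was the highest cRGC library for all 3.

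The log2 fold changes were 2.60 for Gli1 (SE 0.255), 2.22 for Gli2 (SE 0.235) and 2.66 for Gli3 (SE 0.253). Their adjusted p-values by edgeR with Benjamini-Hochberg adjustment were 2.20e-04, 2.45e-04 and 2.09e-04. Leaving out any single library kept the 3 values between 2.07 and 2.98. Gli3 shares 1.96% of its exonic bases with the gene Gm6556 on the opposite strand, which had 140, 67 and 91 reads in iRGCs and 0, 11 and 4 in cRGCs. Gli1 shares 6.55% of its exonic bases with other genes, one of which, Arhgap9, had at most 10 reads in any library.

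Promoter sequences were available from RefSeq (GRCm38.p6) for Cdon, Gas1, Ptch1, Smo, Gli2 and Gli3. They are shown for Smo, Gli2, Gli3 and Ptch1, 4 genes that were higher together and 2 of whose windows are unusually dense in CG, as the 100 bases before the RefSeq start site, 5′ to 3′ on the gene's strand, with every CG dinucleotide in capitals.
Smo (chr6:29735397-29735496, plus strand): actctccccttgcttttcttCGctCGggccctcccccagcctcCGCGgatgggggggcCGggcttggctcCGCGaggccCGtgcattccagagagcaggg
Gli2 (chr1:119053620-119053719, minus strand): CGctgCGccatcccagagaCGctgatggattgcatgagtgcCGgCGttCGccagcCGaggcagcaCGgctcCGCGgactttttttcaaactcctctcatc
Gli3 (chr13:15463623-15463722, plus strand): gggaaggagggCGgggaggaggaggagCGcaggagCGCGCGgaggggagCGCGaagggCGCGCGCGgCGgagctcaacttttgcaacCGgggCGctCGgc
Ptch1 (chr13:63565736-63565835, minus strand): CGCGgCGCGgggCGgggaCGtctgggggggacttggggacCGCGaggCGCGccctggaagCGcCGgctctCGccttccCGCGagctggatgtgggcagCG

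Over the full 300 bases of each RefSeq window, from 250 before to 50 after the start, the windows of Ptch1, Gli3 and Gli2 held 47, 39 and 28 CG dinucleotides and those of Smo and Gas1 17 each, against a median of 7 over 32851 promoters of 27025 genes. Ptch1 had more than 98.6% of all promoters and Gli3 more than 95.6%, whereas the Cdon window held 3, more than 23.3%. The Cdon window lies 30948 bases downstream of the start of the gene in GENCODE and the Ptch1 window 7863 bases downstream, so that both lie at later start sites, while the Gli3 window lies 488 bases downstream and those of Smo and Gli2 lie within 6 bases of the GENCODE start. The Gli binding motif GACCACCCA, searched on both strands, was in 0 of these 6 windows and in 83 of all the promoters (0.253%), which says only that these letters are not in these windows.

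Levels were set against each other after division by exon length, as CPM per kilobase. In iRGCs, Gas1 (35.2 ± 11.2 CPM per kilobase, SD, n = 3), Gli1 (30.8 ± 3.76), Cdon (30.4 ± 7.34) and Smo (23.6 ± 2.20) formed a group in which each gene overlapped the next. Ptch1 (13.3 ± 1.91) stood alone below them, then Gli3 (9.19 ± 1.74) and Gli2 (9.11 ± 1.14) overlapped, and Shh (2.85 ± 1.65) and Boc (2.43 ± 1.46) overlapped at the bottom. In cRGCs the order opened with Shh (12.7 ± 2.18) and Cdon (12.5 ± 0.581), which overlapped each other. Cdon stood clear of the genes below, whereas the lowest library of Shh (10.2) lay under the highest of Gas1 (10.5). Gas1 (5.76 ± 4.41), Ptch1 (5.60 ± 0.612), Gli1 (5.07 ± 1.81) and Smo (5.05 ± 1.80) followed with overlap, then Gli2 (1.95 ± 0.650) and Gli3 (1.45 ± 0.490), and Boc was last at 0.747 ± 0.209 CPM per kilobase. The ligand thus moved from the 8th place in iRGCs to the 1st in cRGCs, and Boc was last in both.

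The mix of Gli factors was compared within each library, where normalization between libraries has no part. Of the counts per kilobase of Gli1, Gli2 and Gli3, Gli1 took 62.7%, 65.5% and 60.1% in iRGC replicates 1, 2 and 3 and 51.4%, 58.7% and 67.9% in cRGC replicates 1, 2 and 3. The cRGC libraries ranged on both sides of the iRGC ones, and the means of 62.7% ± 2.69 and 59.3% ± 8.23 (SD, n = 3 each) differed by 3.42 percentage points (exact permutation test, two-sided, p = 0.6). Gli2 took 18.6%, 18.3% and 18.8% in iRGCs and 27.4%, 23.7% and 18.8% in cRGCs, means of 18.6% ± 0.219 and 23.3% ± 4.33, with overlap in cRGC replicate 3 alone and no test. Gli3 took 18.7% ± 2.48 in iRGCs and 17.4% ± 3.90 in cRGCs (exact permutation p = 0.7). With 3 libraries against 3 these tests cannot go below 0.1, and the sign of both differences turned when 1 cRGC library was left out, replicate 1 for Gli1 (-0.526 points) and replicate 3 for Gli3 (-0.698 points).

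Among the coreceptors, Boc took a small part in every library, 1.89%, 5.97% and 2.82% in iRGCs and 3.86%, 2.86% and 5.32% in cRGCs, with complete overlap (difference -0.451 percentage points, exact permutation p = 0.7, two-sided). The sign of this difference turned when iRGC replicate 1 was left out (0.384 points), and the design could not have shown a change at the threshold used. Cdon took 45.2% ± 12.9 in iRGCs and 68.0% ± 16.4 in cRGCs and Gas1 51.3% ± 13.4 and 28.0% ± 16.9, and these shares overlapped between the populations, with cRGC replicate 2 inside the range of iRGCs.

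**Figure D3:**
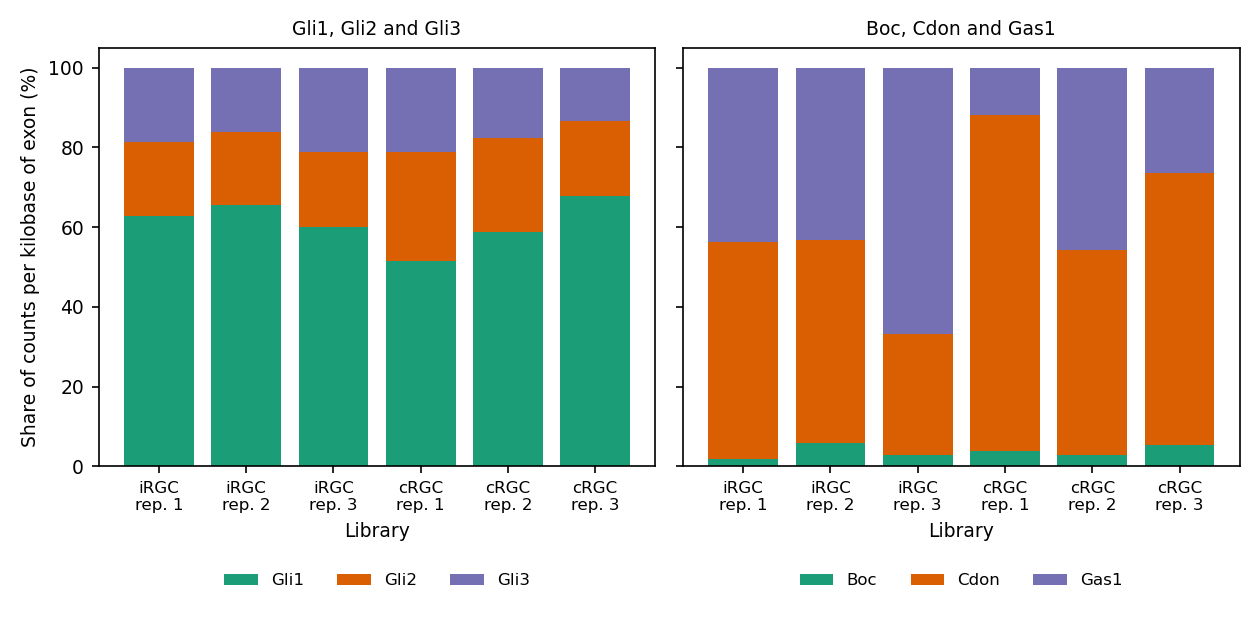
Share of Gli1, Gli2 and Gli3 (left) and of Boc, Cdon and Gas1 (right) in the summed counts per kilobase of exon of each set, in percent, with 1 stacked bar per library. Gli1 took 51.4% to 67.9% of its set and Boc 1.89% to 5.97% of its set across the 6 libraries, with overlap between the populations.

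Since markers of progenitors and RGCs moved with the populations too, each gene's level was also set against the level of those marker lists in the same library, a description chosen after the data were seen, with no test. Relative to the retinal progenitor list, Smo stood at 48.4%, 48.2% and 49.9% in iRGCs and at 46.3%, 44.7% and 59.8% in cRGCs. Gli2 stood at 24.3%, 19.7% and 25.3% against 31.4%, 23.8% and 18.3%, and Gli3 at 34.2%, 24.3% and 39.7% against 33.9%, 24.7% and 18.2%. For these 3 genes the populations overlapped on this scale, as they also did for Gas1 and for Boc (1.84%, 6.34% and 3.80% against 7.33%, 3.77% and 7.78%).

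Gli1 remained higher relative to progenitor markers in every iRGC library, at 59.6%, 51.2% and 58.8% against 42.9%, 42.9% and 48.1%, a gap far smaller than that in CPM. Against the list of cycling cells, the populations overlapped for Gli1 (74.0% to 81.6% in iRGCs, 60.6% to 77.0% in cRGCs). Against neurogenic precursors they did not overlap for Gli1 (87.0% to 121% against 51.5% to 66.1%), Smo (81.8% to 98.2% against 55.6% to 77.4%) or Gli3 (41.3% to 70.4% against 23.5% to 40.7%), all higher in iRGCs. Ptch1 and Cdon turned round on this scale: relative to progenitor markers Ptch1 stood at 72.5%, 56.0% and 80.6% in iRGCs and 192%, 109% and 148% in cRGCs, and Cdon at 91.4%, 93.6% and 71.1% against 277%, 118% and 173%. Both were thus lower in every iRGC library once set against progenitor markers. Ptch1 was also lower in every iRGC library against neurogenic precursors (at most 147% against at least 168%), where Cdon overlapped (126% to 185% against 181% to 333%).

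Relative to the RGC list, the ligand was close to level. Shh stood at 4.89%, 4.99% and 7.04% of the RGC marker level in iRGCs and at 5.22%, 7.90% and 8.67% in cRGCs, with overlap, whereas relative to progenitor markers it ranged from 1.60% to 5.67% in iRGCs and 51.0% to 80.1% in cRGCs. The other 8 genes were all higher in every iRGC library than in any cRGC library on this scale. Boc, for example, stood at 5.63%, 14.6% and 4.72% of the RGC marker level in iRGCs and at 0.477%, 0.584% and 0.954% in cRGCs, and Gli1 at 73.0% to 182% against 2.79% to 6.64%. Which cells held these transcripts was not measured.

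**Figure D4:**
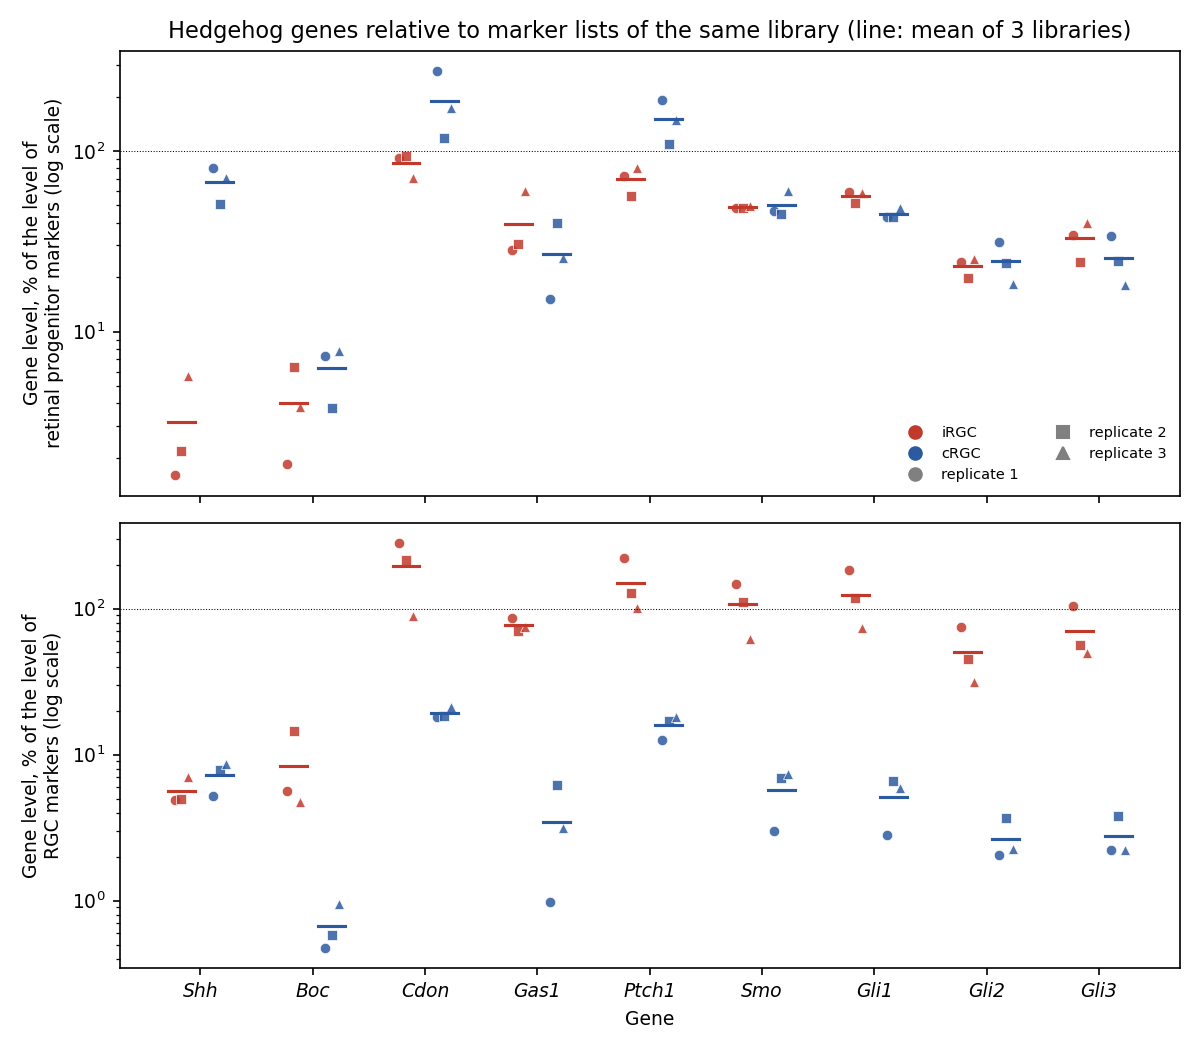
Level of each of the 9 genes as a percentage of the level of retinal progenitor markers (top) and of RGC markers (bottom) in the same library, on log axes, with a symbol per library, red for iRGCs and blue for cRGCs, and a line at the mean of 3 libraries. Smo, Gli2, Gli3, Gas1 and Boc overlapped between the populations relative to progenitor markers and Shh relative to RGC markers, while Ptch1 and Cdon were lower in iRGCs in the top panel.

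Beyond the 9 genes, 64 other genes of the pathway were looked up by role, of which 59 were tested. They did not move as 1 block: 21 were higher in iRGCs, 19 lower and 19 not called, with a median log2 fold change of 0.073 against -0.0031 for all tested genes. The called share was 67.8%, against 46.4% of all tested genes.

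Of the 7 tested genes for other ligands and for their processing and release, 1 was higher and 2 were lower. Disp2, a relative of the Dispatched protein that releases the ligand, stood at 46.5, 61.2 and 93.0 CPM in iRGCs and 312, 291 and 283 CPM in cRGCs (-2.14, SE 0.226, adjusted p = 2.45e-04 by edgeR with Benjamini-Hochberg adjustment), a log2 fold change close to that of Shh. Scube1, a secreted carrier of the ligand, was also lower (-1.02). Hhat, the enzyme that adds palmitate to it, was higher (1.01, SE 0.335). Disp1 itself and Scube3 were not called, and Scube3 stood at 224 to 252 CPM in iRGCs and 218 to 229 CPM in cRGCs (0.064, SE 0.0969). The other Hedgehog ligands were all but unread, Ihh at no more than 0.483 CPM and Dhh, which was not tested, at no more than 0.656 CPM in any library.

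The 2 other receptor genes described were both higher. Hhip, a membrane protein that binds and sequesters the ligand and is induced by the pathway, had 58.4, 27.0 and 39.6 CPM in iRGCs and 4.19, 9.15 and 4.32 CPM in cRGCs (2.82, SE 0.387, adjusted p = 6.22e-04 by edgeR with Benjamini-Hochberg adjustment). Lrp2 (megalin), an endocytic receptor that takes up Sonic hedgehog, had 19.7, 56.8 and 16.0 CPM against 4.92, 4.21 and 4.00 CPM (2.82, SE 0.467), and its highest library was iRGC replicate 2, the one with the most ciliary margin RNA, whose part was not tested.

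The other membrane regulators of Smoothened did not share a direction, and of 9 described 3 were higher, 4 were lower and 2 were not called. Evc and Evc2, a pair of proteins that pass the signal on at the base of the cilium and whose genes lie head to head 1604 bases apart on chromosome 5, were both higher, by 1.67 (SE 0.211) and 0.80 (SE 0.294), with adjusted p-values of 4.51e-04 and 0.0595 by edgeR. Efcab7, which anchors them, was higher by 0.69 with an adjusted p of 0.0813 by edgeR, near the threshold, and Iqce was not called. Gpr161, a ciliary receptor that keeps protein kinase A active, was lower, at 68.0, 81.4 and 101 CPM in iRGCs and 217, 168 and 176 CPM in cRGCs (-1.17, SE 0.165, adjusted p = 7.15e-04 by edgeR with Benjamini-Hochberg adjustment). Mgrn1, a ubiquitin ligase that lowers Smoothened at the surface, was lower by a smaller amount (-0.56), as were Grk2 (-0.43) and Arrb2 (-0.52), which bind active Smoothened. Mosmo, which also lowers surface Smoothened, was not called.

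The cytoplasmic regulators of Gli held 1 large difference among 13 genes. Kif7, a kinesin that sets Gli and Sufu in place at the tip of the cilium, stood at 17.1, 13.0 and 15.5 CPM in iRGCs and 1.54, 2.69 and 2.23 CPM in cRGCs (2.82, SE 0.308, adjusted p = 2.66e-04 by edgeR with Benjamini-Hochberg adjustment), though 20.3% of its exonic bases overlap other genes. Sufu, which binds and restrains Gli, was higher by 0.38 with an adjusted p of 0.0547 by edgeR. The protein kinase A subunits Prkaca, Prkacb and Prkar1a (-0.46, -0.59 and -0.69), the kinase Gsk3b (-0.62), the ligase receptor Btrc (-0.33) and the kinase Ulk3 (-0.43), most of which take part in turning Gli3 into a repressor, were lower. Stk36, Csnk1a1, Spop, Cul3 and Dyrk2 were not called.

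Genes for ciliary transport and the transition zone, on which the pathway depends in vertebrates, differed in both directions. Of 15, 7 were higher, led by Ift80 (1.42, SE 0.182), with Dync2h1 (0.79), Tulp3 (0.75), Mks1 (0.67), Ift122 (0.60), Arl13b (0.57) and Cep290 (0.45) behind it. The kinesin subunits Kif3a (-0.55) and Kif3b (-0.76) and the transport gene Ift88 (-0.35) were lower, and 5 were not called. The list's level ranged from 50.9 to 56.8 CPM in iRGCs and from 46.3 to 46.7 CPM in cRGCs.

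Of the 7 tested target genes described besides Gli1 and Ptch1, 6 were higher in iRGCs and none was lower. Ccnd1, which encodes the G1 cyclin D1, stood at 3362, 2649 and 2520 CPM in iRGCs and 277, 779 and 471 CPM in cRGCs (2.48, SE 0.329, adjusted p = 5.39e-04 by edgeR with Benjamini-Hochberg adjustment). Of its exonic bases, 23.4% overlap another gene. Hes1 (2.38), Bcl2 (1.44), Olig2 (2.60) and Hhip were higher as well. Ccnd2 was called at 4.08 (SE 1.00) but ranged from 9.81 to 97.6 CPM within iRGCs, with the highest level in iRGC replicate 2. Mycn, a target that drives proliferation of neural precursors, stood at 154, 154 and 174 CPM in iRGCs and 188, 160 and 189 CPM in cRGCs and was not called (-0.15, SE 0.112). Ccnd1, Hes1 and Olig2 are also genes of retinal progenitors, whose marker list moved the same way. Nkx2-2, Nkx6-1, Foxa2 and Foxf1, targets in the ventral neural tube and gut, had at most 1.21 CPM in any library and were not tested.

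Genes known to act downstream of Sonic hedgehog when it turns axons, a route that does not need transcription by Gli, were mostly lower in iRGCs. Of 7, the kinase genes Src (-0.59, SE 0.104) and Fyn (-0.81, SE 0.133) and the genes Dock3 (-0.91) and Elmo1 (-0.94), which encode parts of an exchange factor complex for Rac, were lower. Igf2bp1, which encodes a protein that carries actin mRNA, was higher (1.14, SE 0.253). Dock4 and Elmo2 were not called. The RGC marker list moved the same way as the genes that were lower, and its part was not tested.

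**Figure D5:**
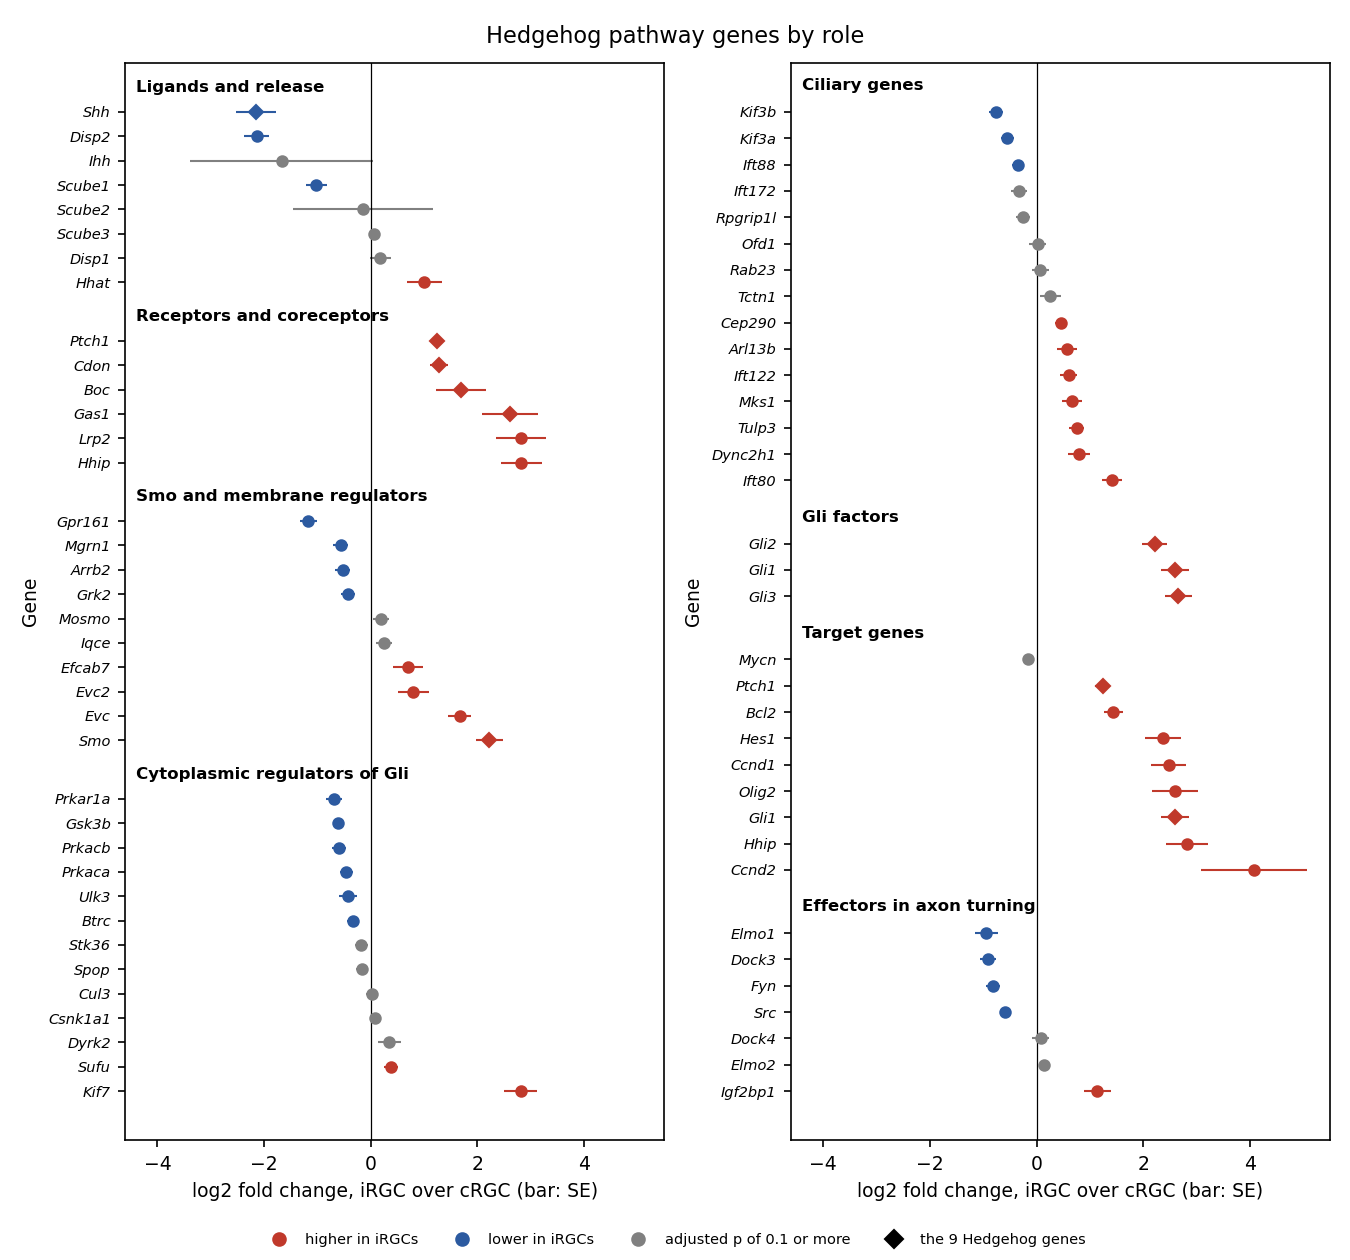
Log2 fold change of iRGCs over cRGCs with its SE for each tested gene of the pathway lists described here, grouped by role (vertical axis), with diamonds for the 9 Hedgehog genes and colour for the call at an adjusted p under 0.1; genes with more than 1 role appear more than once. Receptors, Gli factors and target genes lay mostly to the right (higher in iRGCs), while Shh and Disp2 lay to the left.

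For Shh, Boc and Gli1, the genes with the most similar levels over the 6 libraries were found among about 10274 genes with a mean of at least 10 CPM, by Pearson's r of log2 CPM. Shh was most like Myl12b, Atp6v1c1 and Slc25a4 (r = 0.999 for each), which encode a myosin light chain, a subunit of the proton pump and a mitochondrial carrier. Boc was most like Map2k3 (r = 0.994), Gtpbp3 (0.991) and Smim15 (0.989), which share its high level in iRGC replicate 2. Gli1 was most like Clspn, B230118H07Rik and Ptf1a (r = 0.999 or above for each). Clspn, a gene of DNA replication checkpoints, stood at 115, 100 and 89.5 CPM in iRGCs and 9.50 to 21.9 CPM in cRGCs. With 6 points in 2 separate groups, such values describe the pattern and carry no test, and they are the highest of a large number of comparisons.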

How the data were processed

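The 6 RNA-seq libraries were grouped by the titles in their labels, 3 iRGC and 3 cRGC. Their ATAC-seq counterparts were not analysed here. Reads were mapped by the authors to mm10 with HISAT2 2.1.0, counted on Ensembl genes of GRCm38 (release 89) with HTSeq 0.11.1 and deposited raw counts, 1 table per library. Symbols, positions and exon lengths came from GENCODE M21 for 46574 of 47069 genes. Tallies without a gene were kept out of the totals and the tests (no gene: 8.09% to 16.8% of tallied alignments, ambiguous: 0.618% to 0.649%, not unique: 25.9% to 33.0%). No libraries were duplicates, since every pair within a population differed by more than sampling noise.

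The test was that of edgeR 4.0.16 in R 4.3.3 (filterByExpr, TMM, quasi-likelihood test, no block) over 15941 genes with Benjamini-Hochberg adjustment. The common biological coefficient of variation was 36.3%, which limits the differences that can be called. The fit was tested on simulated data. Shares within a library were compared by exact permutation tests. The alternatives were other size factors, DESeq2 1.42.0, limma 3.58.1 (voom), other filters, a block for the replicate number, a threshold of 0.05 on the adjusted p-value, protein-coding genes alone and libraries left out. The 9 genes are all described, and of the wider pathway those called are named, with others added after their values were seen. The members, lists and tests were chosen with earlier results of these data known. Of the gene names in the lists, 1 (Adrbk1, an older name of Grk2) was not found, and some genes of the pathway are not reported here. Figures were drawn with matplotlib 3.10.9.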

Additional observations from a re-analysis of the deposited data

How the results depend on the processing

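Under the 15 alternatives with at least 2 libraries per population, between 6303 and 7790 genes were called in place of 7395, and all 9 Hedgehog genes were called in the same direction each time. With iRGC replicates 1 and 2 left out, added after the data were seen, 1 iRGC library remained, and all 9 Hedgehog genes kept their direction, a description without a test. Leaving out 1 library at a time, the number of genes called ranged from 6303 to 7603 and that of Hedgehog genes stayed at 9. The log2 fold change of Shh then ranged from -2.74 to -1.88, that of Boc from 1.12 to 2.02 and that of Gas1 from 2.17 to 3.38. The deviations of same-numbered libraries correlated at -0.011, -0.013 and -0.048, so no sign of pairing by replicate number was seen. With 3 libraries per population, such values cannot exclude pairing. With the number as a replicate block, 6751 genes and all 9 Hedgehog genes were called, with Shh at -2.28 and Boc at 1.55. The differences in the Gli1, Gli3 and Boc shares, the 3 that were recomputed, each changed sign under at least 1 alternative, and their exact tests could not pass the threshold in this design. Leaving out 1 library, the difference in the Gli1 share ranged from -0.526 to 7.68 percentage points, that in the Gli3 share from -0.698 to 3.20 and that in the Boc share from -1.66 to 0.384. Without division by exon length the Boc difference was 0.216 points. The cause was not tested. The precision of Boc was limited by the spread between libraries, with a coefficient of variation of 60.1% over the iRGC libraries.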
